A study of Mus musculus with 44 samples.

Results

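The non-cycling fGTS2 cells are 873 single cells of 1 mouse medulloblastoma library, labelled fGTS2 and taken from a GTS tumor. A cell was counted as non-cycling when it held at least 5000 unique molecular identifiers (UMIs, each of which tags 1 captured RNA molecule) and 0 UMIs in each of Mki67, Top2a, Cdk1, Aurkb and Ccnb1. Of the 4498 fGTS2 cells, 4358 held at least 5000 UMIs, and the 873 non-cycling cells were 20.03% of these (95% exact binomial interval 18.9% to 21.3%). The other 3485 cells, each with a UMI in at least 1 of the 5 genes, were the comparison group. The groups therefore differ in these 5 genes by construction, and genes that follow the cell cycle are tied to the same choice.

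Medulloblastoma arises in the cerebellum. In GTML mice the promoter of the glutamate transporter Glt1 (gene Slc1a2) drives an activator that turns on MYCN unless a tetracycline is given. GTS tumors come from a related model, whose design the labels do not describe. The second single-cell library, labelled GTML_SOX9-GFP, came from a GTML tumor and held 4645 cells. The bulk RNA used here came from lines labelled GTML3 and preGTS1, each given DMSO, a solvent, or DOX, with 3 samples per condition. DOX is the usual short name of doxycycline, the drug to which tetracycline-controlled promoters respond, and the labels give neither its dose nor its time. The labels give no allele, age or sex, do not say what the letter f in fGTS2 or the prefix in preGTS1 stands for, and state no treatment for either single-cell library.

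Cells that leave the division cycle stop making the proteins that copy and separate DNA, and many of the genes concerned are repressed together by a complex of E2F and MuvB proteins known as DREAM. That complex acts through promoter elements called the CHR and, in many of the same promoters, NF-Y binds CCAAT boxes. Resting cells often raise the opposing growth-arrest genes, among them the MYC antagonist Mxd4, the antiproliferative gene Btg2, the translation inhibitor Pdcd4 and the PI3-kinase inhibitor Pik3ip1. Dormancy of SOX9-positive cells is the subject of the series, so whether cells without division transcripts differ in Sox9 is a question that the design raises.

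Promoters of the genes that the comparison turns on are shown first, since groups of genes moved together. Sequences are the 250 bases before the start of transcription in RefSeq (GRCm38.p6), 5′ to 3′ on the strand of the gene. Capitals mark the CHR (TTTGAA), the CCAAT box (CCAAT) and the E-box (CACGTG), the site of MYC and its antagonists of the MXD family, on either strand. Ube2c and Cks1b are among the 12 genes furthest below the other cells, and Mxd4 and Btg2 are growth-arrest markers.
Ube2c, chr2:164769679-164769928, plus strand: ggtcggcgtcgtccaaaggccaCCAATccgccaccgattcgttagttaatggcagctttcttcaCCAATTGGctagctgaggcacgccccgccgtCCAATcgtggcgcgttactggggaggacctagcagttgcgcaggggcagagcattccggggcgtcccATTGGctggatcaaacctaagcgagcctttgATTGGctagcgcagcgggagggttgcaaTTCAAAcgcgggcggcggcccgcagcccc
Cks1b, chr3:89418292-89418541, minus strand: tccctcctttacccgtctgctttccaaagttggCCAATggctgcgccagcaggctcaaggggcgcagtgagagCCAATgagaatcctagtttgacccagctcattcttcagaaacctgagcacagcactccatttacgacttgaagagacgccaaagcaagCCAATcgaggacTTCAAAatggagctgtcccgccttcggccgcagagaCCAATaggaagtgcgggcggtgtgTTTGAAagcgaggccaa
Mxd4, chr5:34187711-34187960, minus strand: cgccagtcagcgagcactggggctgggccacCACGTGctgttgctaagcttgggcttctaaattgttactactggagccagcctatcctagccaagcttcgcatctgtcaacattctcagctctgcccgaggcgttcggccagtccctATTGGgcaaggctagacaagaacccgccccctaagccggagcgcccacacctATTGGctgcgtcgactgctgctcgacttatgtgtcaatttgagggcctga
Btg2, chr1:134079156-134079405, minus strand: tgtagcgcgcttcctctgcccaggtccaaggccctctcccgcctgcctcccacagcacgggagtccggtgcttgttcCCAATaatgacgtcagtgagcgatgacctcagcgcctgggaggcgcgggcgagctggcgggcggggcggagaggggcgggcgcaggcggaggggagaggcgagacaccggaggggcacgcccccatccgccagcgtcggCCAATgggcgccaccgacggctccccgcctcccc
Ube2c and Cks1b hold both the CHR and CCAAT boxes, while Mxd4 holds CCAAT boxes and an E-box, and Btg2 holds CCAAT boxes. Over all 225 genes at least 1.5-fold lower in the non-cycling cells (4.6% of tested genes) the CHR occurred in 17.3% of 225 promoters, against 12.8% of 47 promoters of the 41 genes at least 1.5-fold higher (0.838%), 10.4% of 4921 promoters of all tested genes and 16.0% of 32851 promoters of all genes in RefSeq's table. CCAAT occurred in 56.9%, 42.6%, 36.3% and 33.8% of the same sets. The motifs TTTCGCGC or TTTGGCGC of E2F occurred in 6.67% (15 promoters), 0%, 1.56% and 0.654%. CACGTG occurred in 9.78%, 10.6%, 9.69% and 6.02%, and the forkhead motif GTAAACA in 1.78%, 4.26%, 1.99% and 3.17%. Among the few promoters found for the 12 lowest and 12 highest genes, the CHR occurred in 4 of 10 and 1 of 12, CCAAT in 8 of 10 and 6 of 12, CACGTG in 1 of 10 and 3 of 12, and the E2F and forkhead motifs in none. A gene with several starts counts 1 promoter for each, both strands were searched, and none of these matches shows binding.

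Before levels were compared, the depth of the cells was examined, because a cell with few UMIs can show 0 UMIs in 5 genes through sampling alone. Non-cycling cells had a median of 17331 UMIs and the others 22874. Of the cells with 10000 to 15000 UMIs, 40.4% were non-cycling (interval 35.7% to 45.3%), against 15.8% at 20000 to 25000 UMIs and 2.24% at 40000 to 80000. The share was 25% at 5000 to 10000 UMIs (37 of 148 cells), so it was not highest in the shallowest cells. Each non-cycling cell was therefore set beside 1 other cell of the same depth, drawn within bins of 0.25 log2 units, which left all 873 members and 873 other cells with a median of 17364 UMIs. At the edge of the rule, 624 cells held exactly 1 UMI over the 5 genes and 346 held 2. With 0 UMIs in the 5 genes, 7 cells lay just above the minimum (median 5316 UMIs) and 3 just below it (median 4553 UMIs).

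**Figure D1:**
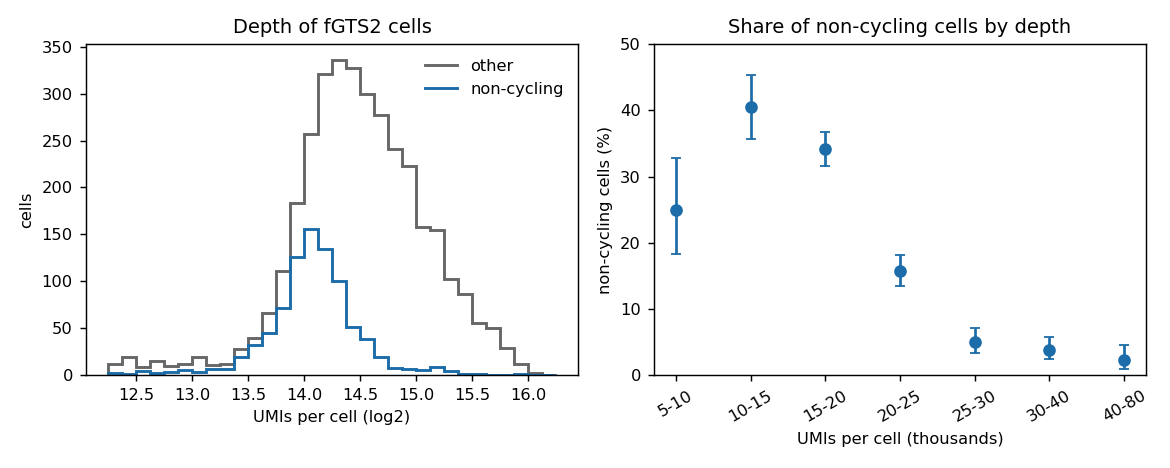
Left, number of fGTS2 cells of at least 5000 UMIs by log2 UMIs per cell, for non-cycling and other cells. Right, share of non-cycling cells in each range of UMIs per cell, with 95% exact binomial intervals; it is 40.4% at 10000 to 15000 UMIs and 2.24% at 40000 to 80000.

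Measures of RNA quality were compared with the depth-matched other cells. After each cell was thinned to 5000 UMIs, they held a median of 1738 genes and the others 1789. The median share of mitochondrial UMIs was 8.00% and 7.30%, and that of UMIs from cytosolic ribosomal protein genes 33.0% and 31.4%. Above 10% mitochondrial UMIs lay 122 non-cycling cells (14.0%, interval 11.7% to 16.5%) and 84 matched others (9.62%, interval 7.75% to 11.8%) or, of all other cells, 244 (7.001%). In 8 non-cycling cells the mitochondrial share was under 1%, and these had a median of 5859.5 UMIs. Among cells with at most 10% mitochondrial UMIs (751 non-cycling cells), 37 genes were at least 1.5-fold higher and 223 lower, against 41 and 225 without that limit. Beyond these counts, whether the mitochondrial share plays a part in the gene differences was not tested. Markers of other cell types found in brain or blood were summed, and genes known from tuft cells are given further on. Of 16 microglia and macrophage markers 6 were in the table, and their summed level in the non-cycling cells was 11.8 CPM (the UMIs of a gene per 1e6 pooled UMIs of a group), against 7.17 in the other cells. It was 0.255 and 0 CPM for 2 T and NK cell markers, 1.66 and 1.33 for 3 endothelial, 6.37 and 6.41 for 3 mural, 9.74 and 8.82 for 5 ependymal, 1.72 and 1.90 for 3 erythroid and 27.2 and 19.7 for 5 astrocyte markers. Oligodendrocyte markers summed to 74.0 and 77.5 CPM and markers of mature granule neurons to 125.9 and 105.5. Of all these markers 3 reached the level at which genes were compared, and none passed 1.5-fold. The part of other cell types and of free RNA in the results was not tested. Between the fGTS2 and GTML_SOX9-GFP libraries 6 barcodes were shared, none of them of a non-cycling fGTS2 cell.

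The growth-arrest markers were all higher in the non-cycling cells, but by different amounts. Each group is 1 part of 1 library, so no difference between them carries a test, and the intervals given are exact 95% Poisson or binomial intervals that cover counting error only. Mxd4 stood at 135 CPM in the non-cycling cells (129 to 141) and 80.5 CPM in the others (76.2 to 85.1), a log2 ratio of 0.74 (0.64 to 0.85). After thinning, an Mxd4 UMI was seen in 49.1% of non-cycling and 28.8% of other cells. Pdcd4 stood at 83.8 CPM against 57.0 (log2 ratio 0.55, interval 0.43 to 0.68) and Btg2 at 116 CPM against 84.7 (0.46, interval 0.35 to 0.56). Pik3ip1 was scarce, at 15.2 CPM against 10.2 (0.58, interval 0.29 to 0.88). Of these markers Mxd4 alone passed the 1.5-fold mark used below, and Pik3ip1 lay under the mean level of 20 CPM asked of a gene.

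Across the table, 4895 genes reached a mean of 20 CPM over both groups, the 5 rule genes left out. Of these 41 were at least 1.5-fold higher in the non-cycling cells, which is 0.838% of the genes, and 225 were at least 1.5-fold lower, which is 4.6%. The median gene differed by -0.03 on the log2 scale. Of the 225 lower genes 61 stood on the lists of S-phase, G2/M or histone genes, and none of the 41 higher genes did. In the others the rule genes stood at 190 CPM for the topoisomerase gene Top2a, 113 for the mitotic kinase gene Cdk1, 106 for the proliferation antigen gene Mki67, 93.5 for the cyclin gene Ccnb1 and 22.9 for the kinase gene Aurkb. These counts describe 2 groups of cells chosen by their transcripts and are not counts of tested genes.

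Genes of mitosis and DNA synthesis made up the 12 lowest genes named. Birc5, which encodes the survivin subunit of the chromosomal passenger complex, stood at 12.0 CPM (10.3 to 13.8) in non-cycling and 152 CPM (146 to 159) in other cells. Its partner in that complex, Cdca8, stood at 12.5 and 139 CPM, and the kinetochore gene Cenpf at 19.9 and 209 CPM. The log2 ratios of these 3 were -3.67, -3.47 and -3.40. Pclaf, which binds the replication clamp, stood at 27.7 and 223 CPM (-3.01), the linker histone gene Hist1h1b at 26.0 and 209 CPM (-3.01) and the chromatin protein gene Hmgb2 at 99.4 and 684 CPM (-2.78). Ube2c, the ubiquitin-conjugating enzyme of the anaphase-promoting complex, stood at 44.1 and 269 CPM (-2.61). The others were the licensing inhibitor Gmnn (-2.54), the entry-into-mitosis gene Cdca3 (-2.27), the thymidylate synthase gene Tyms (-2.07), the histone chaperone gene Nasp (-1.86) and Cks1b, a subunit of cyclin-dependent kinases (-1.85). A UMI was seen in 38.5% of thinned non-cycling cells and 73.2% of the others for Hmgb2, but in 4.58% and 38.4% for Birc5 and in 6.19% and 37.5% for Cdca8. Free RNA can give such UMIs, and its share was not measured.

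By list, 32 of 34 tested G2/M genes outside the rule were at least 1.5-fold lower, with a median log2 ratio of -2.06. Hmmr (1.85 and 86.6 CPM), Nusap1 (2.10 and 49.9), Tpx2 (3.57 and 74.4) and Ccna2 (3.06 and 56.2), all of the mitotic spindle or its cyclin, were furthest below. Of 29 tested S-phase genes 26 were lower, with a median of -1.77. Clspn, an S-phase checkpoint adaptor, had a log2 ratio of -3.62, the ribonucleotide reductase gene Rrm2 -3.44, the helicase subunit Mcm3 -3.00 and the chromatin remodeller Hells -2.80. Of 5 tested histone genes 3 were lower, while Hist1h2bc was higher by 0.33. No gene of these 3 lists was past 1.5-fold upward, and the direction is tied to the rule, whose 5 genes belong to the same programme.

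The rule uses genes of mitosis and late S phase, and transcripts of DNA synthesis remained in the cells it chose. After thinning to 5000 UMIs, 16.6% of the non-cycling cells had 0 or 1 UMI over the S-phase list, against 6.30% of the others. A further 51.3% had 2 to 4 UMIs, against 19.6% of the others, and 27.8% had 5 to 9, against 25.7%. In 37 non-cycling cells (4.24%, interval 3.00% to 5.79%) there were 10 or more S-phase UMIs, against 48.5% of the other cells. In these 37 cells Hmgb2 stood at 250 CPM, against 76.6 CPM in the 145 non-cycling cells with the fewest S-phase UMIs. Mxd4 stood at 112 and 145 CPM in the same 2 groups of cells, Krt18 at 488 and 980 CPM, and Btg2 at 109 in both. Sox9 stood at 37.0 CPM (24 UMIs) in the 37 cells and 97.8 CPM (249 UMIs) in the 145. At a cutoff of 10 or more S-phase UMIs, the rule therefore leaves a small number of cells with clear S-phase transcripts among the members. At 5 to 9 UMIs the shares of members and others were close.

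**Figure D2:**
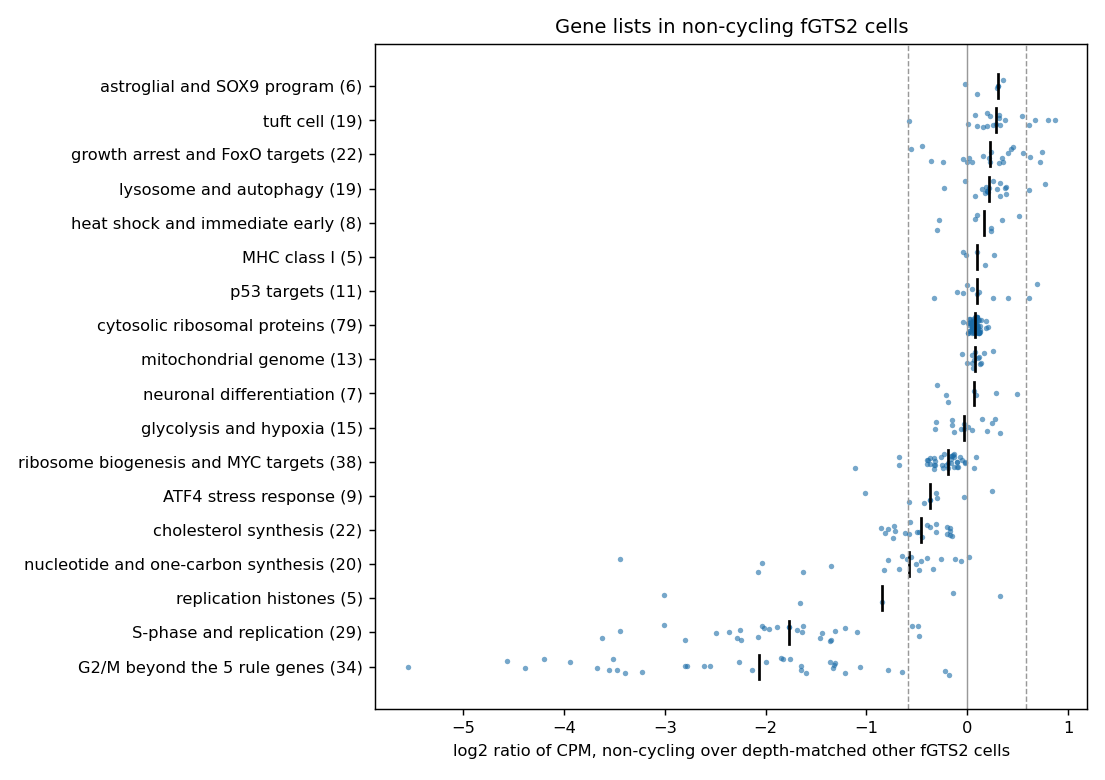
Log2 ratio of CPM, non-cycling over depth-matched other fGTS2 cells, for each tested gene (points) of the lists with at least 5 tested genes; black bars are medians, dashed lines mark 1.5-fold and the number of tested genes follows each name. The G2/M and S-phase lists have medians of -2.06 and -1.77, and the growth-arrest and tuft cell lists 0.23 and 0.29.

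The 12 highest genes named were led by the actin-binding peptide gene Tmsb4x, at 172 CPM (165 to 178) in non-cycling and 91.2 CPM (86.5 to 96.0) in other cells, a log2 ratio of 0.91. Alox5ap, which presents arachidonate to 5-lipoxygenase, stood at 159 and 86.8 CPM (0.87), and Ltc4s, the leukotriene C4 synthase gene, at 300 and 188 CPM (0.68). The simple-epithelium keratin genes Krt18 (785 and 449 CPM, 0.81) and Krt8 (500.0 and 328 CPM, 0.61) were higher as well. Growth-arrest or stress genes among them were Mxd4, Ypel3 (82.7 and 50.1 CPM, 0.72) and the sestrin gene Sesn3 (134 and 87.1 CPM, 0.62). The lysosomal protease gene Ctsl stood at 79.2 and 46.3 CPM (0.77). Bcl2l14, a member of the BCL2 family, had a log2 ratio of 0.65, the adhesion receptor gene Adgrg6 0.62 and the D-aspartate oxidase gene Ddo 0.59. Near the threshold, calls depended on the settings: of 10 alternatives Bcl2l14 and Adgrg6 passed 1.5-fold in 7, Ddo in 6, and Krt8 and Sesn3 in 5. Tmsb4x, Alox5ap, Krt18, Ctsl, Mxd4, Ypel3 and Ltc4s passed in 10. The largest ratios in the table belonged to Neat1, a nuclear long noncoding RNA (34.1 CPM, 1.05), and the syndecan gene Sdc4 (49.9 CPM, 1.01), which were too low for the naming rule and are named after their values were seen.

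The lists behind these genes shifted by small amounts. Of all 4895 tested genes 0.838% passed 1.5-fold upward and 2209 lay above 0. Of 22 tested growth-arrest and FoxO target genes 3 passed 1.5-fold upward, Mxd4, Ypel3 and Sesn3, and none downward, with 16 of 22 above 0 and a median of 0.23. The linker histone gene H1f0, which is on that list, was lower by 0.56 (98.0 and 144 CPM). Of 19 tested genes known from tuft cells, a chemosensory epithelial cell type, 4 were past 1.5-fold upward (Krt18, Krt8, Alox5ap and Ltc4s) and none downward, with 18 of 19 above 0 and a median of 0.29. The lowest log2 ratio on the tuft cell list was -0.58, just short of 1.5-fold downward. Of 19 lysosome and autophagy genes Ctsl and the autophagy receptor gene Sqstm1 (45.3 and 29.6 CPM) passed, with a median of 0.22. Of 11 p53 target genes Trp53inp1 (56.9 and 35.1 CPM) and the cell death gene Bbc3 (48.4 and 31.6 CPM) passed, with a median of 0.10, while Aen was lower by 0.33.

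Lists of biosynthesis genes differed in direction and size. Of 22 cholesterol synthesis genes 7 were at least 1.5-fold lower and none was above 0, with a median of -0.46. Msmo1 stood at 51.8 and 93.4 CPM, the first committed synthase gene Hmgcs1 at 87.4 and 154 CPM, Insig1 at 41.1 and 71.0 CPM and Lss at 19.5 and 32.4 CPM. Of 20 nucleotide and one-carbon genes 10 were lower (median -0.58), among them the ribonucleotide reductase gene Rrm1 at 29.1 and 89.9 CPM. Among 38 genes of ribosome biogenesis or MYC targets, 3 were at least 1.5-fold lower, against 4.6% of all tested genes (list median -0.19), Tcof1 (30.1 and 65.1 CPM), the polyamine synthesis gene Odc1 (145 and 231 CPM) and Cad (17.6 and 28.2 CPM). The 79 cytosolic ribosomal protein genes lay between -0.04 and 0.21, with a median of 0.08 and none past 1.5-fold. Of them 78 were above 0, against 2209 of all 4895 tested genes. Of 9 ATF4 stress response genes the tRNA synthetase gene Cars was lower (16.7 and 33.7 CPM), with a list median of -0.37. None of the tested genes passed in the lists of neuronal differentiation (7 genes), astroglial and SOX9 programme (6), Notch (3), glycolysis and hypoxia (15), heat shock and immediate early (8), interferon (2), MHC class I (5) or the mitochondrial genome (13).

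Among the genes tied to the models and the subject of the series, Sox9 was higher in the non-cycling cells by less than 1.5-fold, and Mycn differed little. Sox9 stood at 88.5 CPM (83.9 to 93.2) in non-cycling and 71.5 CPM (67.4 to 75.8) in other cells, a log2 ratio of 0.31 (0.19 to 0.42). A Sox9 UMI was seen in 32.6% of thinned non-cycling cells and 30.4% of thinned others, with overlapping intervals (29.5% to 35.9% and 27.3% to 33.5%). Deeper data gave a wider gap whose intervals did not overlap, with 53.3% (49.9% to 56.8%) and 44.5% (41.1% to 47.9%) after thinning to 10000 UMIs in 836 cells of each group, and 68.5% (65.3% to 71.6%) and 60.9% (57.6% to 64.2%) without thinning. Read the other way, among 1324 cells of 15000 to 20000 UMIs the share of non-cycling cells was 31.2% (27.1% to 35.5%) in cells with 0 Sox9 UMIs, 35.3% with 1, 38.5% with 2 and 34.3% (28.2% to 40.9%) with 3 or more. These intervals overlap, and no order of these shares with Sox9 UMIs was detectable. Pooled Sox9 levels in the same cells, split by their rule UMIs, did fall and are given below. Mycn stood at 49.7 and 47.4 CPM (log2 ratio 0.07, interval -0.08 to 0.21), and its counts may mix transgene and endogenous RNA. Mgmt, a DNA repair gene that counters alkylating drugs, stood at 30.1 and 25.2 CPM (0.26, interval 0.06 to 0.45). Slc1a2 was near the limit of detection, with 51 and 66 UMIs in all (3.25 and 4.19 CPM), and its sign, like that of Mycn, turned with the settings. Myc was not analysed here.

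To see how sharply the rule divides the cells, cells of 15000 to 20000 UMIs were split by their UMIs over the 5 rule genes. There were 452 cells with 0, 442 with 1 to 2, 308 with 3 to 9, 107 with 10 to 29 and 15 with 30 or more. Mxd4 stood at 134, 127, 75.6, 29.96 and 21.6 CPM along this series, and Btg2 at 113, 119, 77.3, 50.6 and 43.2 CPM. Krt18 stood at 693, 685, 356, 230 and 57.6 CPM, and the summed S-phase list at 772, 1063, 2549, 4074 and 4528 CPM. Sox9 stood at 80.2, 81.6, 66.5, 50.1 and 46.8 CPM. Its intervals at 0 rule UMIs (74.0 to 86.7) and at 10 to 29 (40.6 to 61.1) did not overlap. The cyclin-dependent kinase inhibitor gene Cdkn1b ran opposite to Mxd4, at 45.2, 54.3, 64.6, 73.9 and 79.2 CPM. Its relative Cdkn1a, at 120, 106, 132, 142 and 144 CPM, did not fall along the series as a whole either. Cdkn1c stood at 16.9, 8.61, 11.9, 17.0 and 21.6 CPM. It was thus higher in the non-cycling cells (14.2 to 20.1) than in cells with 1 to 2 rule UMIs (6.67 to 10.9), without overlap, and rose again beyond them. For Mxd4, Btg2 and Krt18 the intervals of the non-cycling cells and of cells with 1 to 2 rule UMIs overlapped. They did not overlap for Tmsb4x, with 127 CPM (119 to 135) at 0 UMIs and 98.6 CPM (91.8 to 106) at 1 to 2, for Alox5ap (149 and 112 CPM), Ltc4s (277 and 245 CPM) or Ctsl (72.3 and 58.8 CPM). Other intervals were apart too, among them those of Cdkn1c, of Hmgb2 (99.5 and 162 CPM) and of the summed S-phase list. The same held for the summed G2/M list (2571 and 3374 CPM) and the cholesterol list (1343 and 1537 CPM). Cells just outside the rule thus lay close to its members in Mxd4, Btg2 and Krt18 and less so in these other genes and lists.

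**Figure D3:**
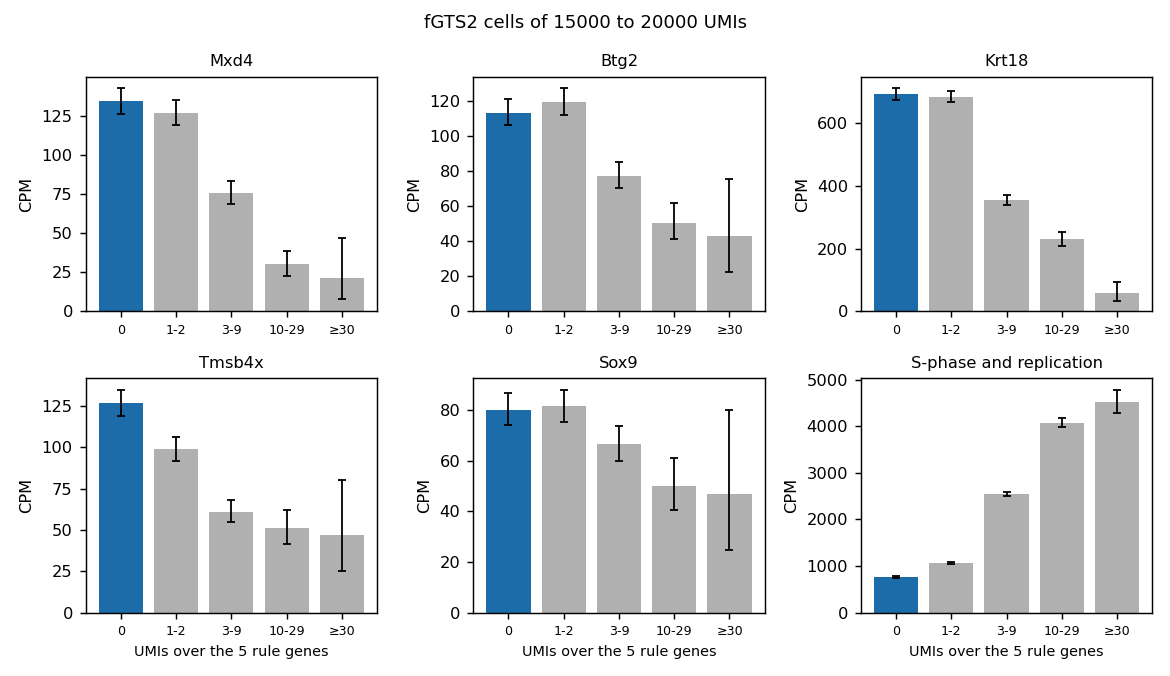
Pooled CPM of 5 genes and of the summed S-phase list in fGTS2 cells of 15000 to 20000 UMIs, by the UMIs of a cell over the 5 rule genes (blue, 0 UMIs, the non-cycling cells); bars start at 0 and error lines are exact 95% Poisson intervals. Mxd4 stands at 134 CPM in the non-cycling cells, 127 CPM in cells with 1 to 2 rule UMIs and 75.6 CPM in cells with 3 to 9.

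The non-cycling cells were not uniform. Among 2386 genes at 50 CPM or more in the non-cycling cells, the variance of thinned UMIs over cells had a median of 1.05 times the mean. The 95th percentile was 1.38. The nuclear noncoding RNA Malat1 reached 45.6 times, Krt18 10.4, Tmsb4x 6.86 and Krt8 6.11. The other 6 of the 10 most variable genes were Actg1 (4.43) and the mitochondrial transcripts mt-Co1 (9.49), mt-Co3, mt-Atp6, mt-Co2 and mt-Cytb. In the depth-matched other cells the values were 40.2 for Malat1, 10.8 for Krt18 and 4.61 for Tmsb4x, so this spread was not limited to the non-cycling cells. Per 5000 UMIs a non-cycling cell held a median of 1 Krt18 UMI, 0 at the 25th percentile and 16 at the 95th.

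Keratin levels divided the non-cycling cells, whereas the growth-arrest markers did not follow them. In 268 of the 873 cells (30.7%, interval 27.7% to 33.9%) there were 5 or more Krt18 UMIs per 5000, against 149 of the matched others (17.1%, interval 14.6% to 19.7%). No Krt18 UMI was seen in 45.8% of non-cycling and 54.6% of other cells. In the non-cycling cells with 0, 1 to 4 and 5 or more Krt18 UMIs, Krt8 stood at 114, 449 and 1098 CPM, Alox5ap at 104, 94.9 and 285 CPM, Tmsb4x at 127, 61.5 and 317 CPM and Sox9 at 71.4, 75.4 and 123 CPM. Mxd4 stood at 132, 129 and 144 CPM in the same ranges, and in the matched others at 73.7, 79.8 and 106 CPM. Mxd4 was thus higher in the non-cycling cells within each Krt18 range. In the matched others Krt8 stood at 77.2, 387 and 1096 CPM and Alox5ap at 56.1, 83.1 and 200 CPM. Tmsb4x stood there at 62.2, 73.3 and 224 CPM and Sox9 at 58.6, 78.6 and 104 CPM. At 1 to 4 Krt18 UMIs Tmsb4x and Sox9 were therefore lower in the non-cycling cells, with overlapping intervals. Krt8 was nearly equal in both groups at 5 or more. Across the 873 thinned cells Pearson's r was 0.66 between Krt18 and Krt8, 0.43 between Tmsb4x and Alox5ap, 0.36 between Krt18 and Alox5ap and 0.01 between Krt18 and Mxd4. These cells share 1 library, and the values describe them only.

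**Figure D4:**
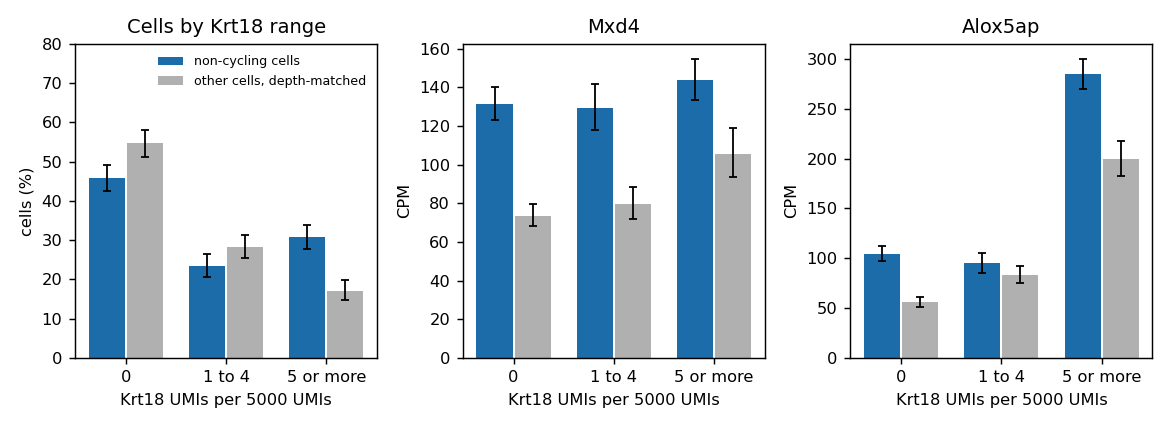
Non-cycling (blue) and depth-matched other (grey) fGTS2 cells in 3 ranges of Krt18 UMIs per 5000 UMIs. Left, share of cells with exact 95% binomial intervals; middle and right, pooled CPM of Mxd4 and Alox5ap with exact 95% Poisson intervals. The highest range holds 30.7% of non-cycling and 17.1% of other cells, and Mxd4 is higher in non-cycling cells in all 3 ranges.

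The same rule was then applied to the GTML_SOX9-GFP library, where 465 of 4537 cells with at least 5000 UMIs were non-cycling (10.2%, interval 9.38% to 11.2%), with a median of 13648 UMIs. Each tumor kind is 1 library, so the difference in shares cannot be told apart from a difference between libraries. Of 5464 tested genes 75 (1.37%) were at least 1.5-fold higher and 313 (5.73%) lower. Of the 225 genes lower in non-cycling fGTS2 cells 218 were tested there, 217 had the same sign, and 166 were past 1.5-fold, which is 76.1% of those 218 and 53.04% of the 313. Of the 41 higher genes only 11 reached the level to be tested. All 11 had the same sign, and 7 passed 1.5-fold (63.6% of the 11 and 9.33% of the 75). Mxd4 stood at 88.7 and 43.2 CPM in GTML_SOX9-GFP (log2 ratio 1.04), Btg2 at 115 and 62.8 CPM (0.87), Pdcd4 at 72.5 and 43.9 CPM (0.72), Tmsb4x at 86.5 and 51.5 CPM (0.75) and Ypel3 at 151 and 100.5 CPM (0.59). Krt18 had 0 UMIs in both GTML_SOX9-GFP groups, Alox5ap stood at 4.59 and 0.912 CPM and Krt8 at 3.52 and 0.456 CPM, so keratin genes and Alox5ap could not be followed there. Ltc4s could, and stood at 32.9 and 19.9 CPM (0.72). Cholesterol genes were past 1.5-fold downward in none of 23 cases there (median -0.23), against 7 of 22 in fGTS2, and whether this differs between the tumors was not tested.

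The genes set apart in the non-cycling cells were last examined in bulk RNA that the rule did not use, the lines given DOX or DMSO. Mycn, the oncogene of the models, went from 8.69, 8.48 and 8.42 to 4.93, 5.07 and 4.80 log2 CPM in GTML3, and from 10.54, 10.45 and 10.91 to 5.54, 6.13 and 5.65 in preGTS1. The limma test, with adjustment over 15926 genes, called 34.5% of all genes up and 31.4% down in GTML3, and 34.5% up and 33.7% down in preGTS1. Changes on this scale are a high background for any list. Whether replicates were separate cultures is not in the labels, and the p-values reflect only how far these samples vary, possibly for technical reasons.

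Of the 41 higher genes 24 were in the bulk table. Of these limma called 21 up and 0 down in GTML3 (median log2 change 1.27) and 19 up and 1 down, the lysosomal protease gene Lgmn (named after its value was seen), in preGTS1 (median 1.48). Leaving out the GTML3 DOX sample furthest from its group (replicate 1), 20 rose in GTML3 and 206 of the lower genes fell. The median over all genes was 0.05 in GTML3 and 0.04 in preGTS1. Of the 225 lower genes 220 were in the table, of which 207 fell and 6 rose in GTML3 (median -1.64) and 215 fell and 3 rose in preGTS1 (median -1.93). Of the 12 highest genes 5 were in the table, namely Tmsb4x, Ctsl, Mxd4, Ypel3 and Sesn3, and all 5 rose in both lines. Krt18, Krt8, Alox5ap, Ltc4s, Bcl2l14, Adgrg6 and Ddo were not analysed in bulk. Of the 12 lowest 11 were in the table, Pclaf apart, and all 11 fell in both lines.

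In single samples the markers separated completely. Mxd4 stood at 5.42, 5.31 and 5.38 log2 CPM under DMSO and 7.85, 8.00 and 7.99 under DOX in GTML3 (change 2.57, SE 0.085, limma adjusted p = 1.14e-12). In preGTS1 it stood at 6.11, 5.96 and 5.93 and at 7.88, 8.06 and 7.78 (1.91, SE 0.085, limma adjusted p = 1.77e-11). All 3 DOX samples of each line lay above all 3 DMSO samples. Pik3ip1 went from 2.11, 1.97 and 1.66 to 5.61, 5.64 and 5.62 in GTML3 (3.71) and from 5.05, 5.14 and 5.08 to 6.90, 6.98 and 6.85 in preGTS1 (1.81). Btg2 rose by 1.73 in GTML3 and 0.84 in preGTS1, and Pdcd4 by 0.92 and 0.55, again with no overlap between DOX and DMSO samples. Among the low genes, Ube2c went from 7.23, 7.18 and 7.06 to 4.27, 4.15 and 4.40 log2 CPM in GTML3 (-2.88) and from 6.70, 6.89 and 6.88 to 3.35, 3.76 and 3.58 in preGTS1 (-3.26), and its groups did not overlap either. Birc5 changed by -2.94 and -3.87, Hmgb2 by -1.63 and -2.22, and Cks1b by -2.49 and -2.34.

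**Figure D5:**
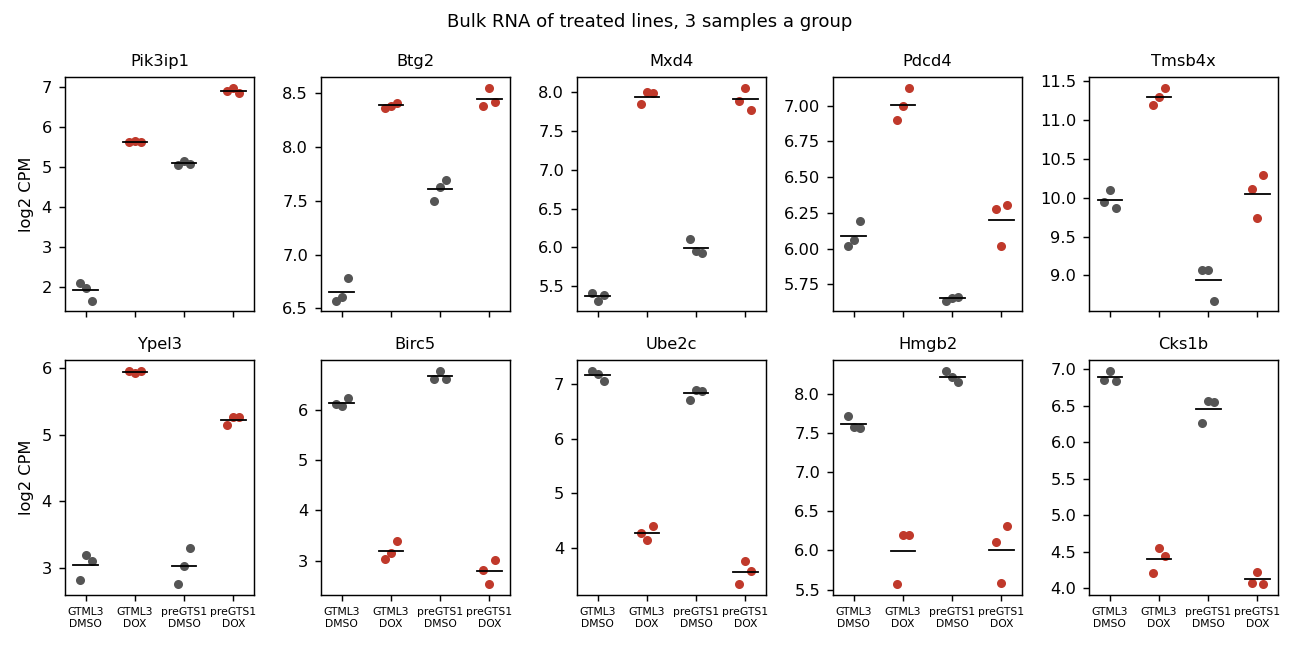
Log2 CPM of 10 genes in each bulk sample of GTML3 and preGTS1 under DMSO (grey) and DOX (red), 3 samples a group, with black lines at the group means; the y axes differ between genes and do not start at 0. The 4 markers with Tmsb4x and Ypel3 are higher in every DOX sample than in any DMSO sample of the same line, and Birc5, Ube2c, Hmgb2 and Cks1b are lower.

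Not every list moved alike in the non-cycling cells and under DOX. Among all genes limma called 34.5% up in each line, and 31.4% down in GTML3 and 33.7% in preGTS1. All 41 tested ribosome biogenesis and MYC target genes fell under DOX in both lines (medians -1.80 and -2.29), as did 77 and 70 of 79 cytosolic ribosomal protein genes (medians -0.84 and -0.99). In the non-cycling cells the medians of these lists were -0.19 and 0.08. Mycn fell by 3.59 in GTML3 and 4.86 in preGTS1 and differed by 0.07 between non-cycling and other cells. Growth-arrest and FoxO target genes rose under DOX in 23 of 36 cases in GTML3 and 27 of 36 in preGTS1, with 4 and 2 falls (medians 0.88 in both). Lysosome and autophagy genes rose in 28 and 27 of 29. Sox9 went from -0.90, -0.78 and 0.27 to 2.15, 1.63 and 1.54 log2 CPM in GTML3, near the floor of 1 CPM under DMSO. It rose by 2.24 in GTML3 and 2.13 in preGTS1, against 0.31 between the non-cycling and other fGTS2 cells. These are values from different assays set side by side, and the difference between them was not tested.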

How the data were processed

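The authors' fGTS2 and GTML_SOX9-GFP tables, used as deposited, give UMI counts (whole numbers) for each gene in each cell of 10x Chromium 3' version 3 libraries, per the labels' protocols. The treated-line table deposited by the authors holds log2 CPM per gene. Cell Ranger 3.3.0, Seurat 3.0, STAR 2.4.0, Subread 1.5.2, Bowtie2 2.2, edgeR, limma and MACS2 are listed without roles in the submitters' processing notes, as are builds mm10 and mm9. Which filter the authors put on cells is not given in the sources used here, and no doublet caller was run. Treated-line columns were assigned by sample title, which they match exactly, since the descriptions are shifted by a column. The tumor and ATAC tables were not used here.

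The members, lists and rule for naming were chosen with earlier results of these data known. Named genes are the 12 highest and 12 lowest ratios at a mean of at least 50 CPM with a UMI in at least 10% of thinned cells of the higher group, the 4 markers, the 5 rule genes, the model's genes, up to 4 members per list and the 10 most variable genes. Cells were matched, thinned and pooled with Python 3.11.15, numpy 2.4.6, scipy 1.17.1 and pandas 2.3.3. The fGTS2 cells held 733 to 71245 UMIs. Log2 CPM were fitted with limma 3.58.1 (lmFit, eBayes with trend and robust, R 4.3.3) over 4 groups of 3, with Benjamini-Hochberg adjustment, a threshold of 0.05 and a floor of 1 CPM reached in 3 samples, which left all 15926 genes. Whole reads could be recovered for 100% of values (10.9 to 24.7 M reads per library), and edgeR 4.0.16 and DESeq2 1.42.0 were run on them as alternatives, with 10627 and 10703 genes called in GTML3 and 11404 and 11451 in preGTS1, against 10484 and 10873 by limma. Replicate 1 of GTML3 under DOX stood apart, with a chi-square per degree of freedom of 59.0 and 83.4 against the other 2, where other replicate pairs gave 4.61 to 35.9. Scripts were tested on simulated data.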

Additional observations from a re-analysis of the deposited data

Results flagged for a closer look

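The response of several named genes to DOX differed between the lines by limma's test of the interaction. Values are the log2 change in preGTS1 minus that in GTML3, over 3 DOX and 3 DMSO samples of each line. The growth-arrest markers rose less in preGTS1, with differences of -1.90 for Pik3ip1 (limma adjusted p = 1.58e-07), -0.89 for Btg2 (2.28e-05), -0.67 for Mxd4 (0.000434) and -0.37 for Pdcd4 (0.0298). Ypel3 differed by -0.71 (limma adjusted p = 0.00735) and Sesn3 by -0.69 (0.00373). Of 11 of the lowest genes of the non-cycling cells, 6 fell further in preGTS1, by -0.93 for Birc5 (limma adjusted p = 0.000665), -0.96 for Cdca3 (0.000203), -1.01 for Cenpf (0.00296), -1.12 for Gmnn (4.03e-05), -0.80 for Nasp (0.000549) and -0.60 for Tyms (0.00385). For the other 5 no difference was called, namely Cdca8 (-0.28, limma adjusted p = 0.149), Cks1b (0.15, 0.437), Hist1h1b (0.03, 0.900), Hmgb2 (-0.59, 0.0909) and Ube2c (-0.38, 0.0595). Mycn fell further there too, by -1.27 (limma adjusted p = 0.000324).

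Between the libraries, 10 named genes had opposite signs in non-cycling against other cells. In 3 of these the counting intervals of both libraries lay clear of 0, and the differences were not tested. The glycolysis gene Ldha had a log2 ratio of -0.32 in fGTS2 and 0.09 in GTML_SOX9-GFP, Pgam1 -0.31 and 0.11, and the mitochondrial transcript mt-Atp6 0.11 and -0.05.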

How the results depend on the processing

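The counts of genes past 1.5-fold moved with the settings, and the cause was not tested. In fGTS2, 71 genes were higher and 386 lower without depth matching, 62 higher after thinning, 26 higher with a minimum of 10000 UMIs per cell, 148 higher and 455 lower with a minimum of 20000, and 152 higher and 522 lower at a mean CPM of at least 5, where more genes are compared. In GTML_SOX9-GFP, with alternatives chosen after seeing the data, 145 were higher after thinning, 405 higher and 805 lower with a minimum of 20000 UMIs, 146 higher with 5 further G2/M genes in the rule, and 409 higher and 724 lower at a mean CPM of at least 5. Sox9 was seen in 68.5% of non-cycling and 60.9% of other unthinned cells, and in 53.3% and 44.5% after thinning to 10000 UMIs. Over 103 named genes and 10 settings, 1023 of 1030 log2 ratios kept their sign, the exceptions being Chn2, Fos, Fosb, Mt1, Mycn and Slc1a2.

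Under DOX, leaving out single samples gave 20 to 21 and 17 to 20 rising genes of the higher set in GTML3 and preGTS1, and 205 to 208 and 213 to 215 falling genes of the lower set. Samples sharing a replicate number correlated at -0.154 to 0.077 in their deviations, so the numbers were not taken as pairs, and with the replicate block the counts were 21, 19, 207 and 215.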
